A study of Mus musculus with 9 samples.

Results

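The Gimap genes encode GTPases of immunity-associated proteins, and 7 of them are described here in bone marrow progenitors of mice: Gimap1, Gimap3, Gimap4, Gimap5, Gimap6, Gimap8 and Gimap9. All probe sets that the platform annotation gives to these genes alone were taken, 9 probe sets among 34945 with a single gene, for 7 of the 18193 genes measured. The neighbouring Gimap7 is not among the 7 and is given with the chromosomal neighbours.

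The cells came from E2A-/- mice, Lyl1-/- mice and wild-type (WT) controls, with 3 arrays per genotype, and were sorted as lineage-negative, CD117+, SCA-1+ and CD135+ bone marrow cells. CD117 is the receptor encoded by Kit and CD135 that encoded by Flt3, and cells of this phenotype include multipotent cells with lymphoid potential. E2A, encoded by Tcf3, is an E protein, and Lyl1 is a basic helix-loop-helix factor that pairs with E proteins. The labels name no age, strain background or sex, and do not say which part of each gene the knockout removes. The labels call the 3 samples of a genotype independent biological replicates. WT 1 and WT 3 were nearly identical over all probe sets and were averaged to 1 sample, so that tests used n = 3 E2A-/-, n = 3 Lyl1-/- and n = 2 WT samples, although every array is shown.

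GIMAP proteins are guanine nucleotide-binding proteins of the AIG1 type, known mainly from lymphocytes, where several sit on the membranes of organelles. They take part in lymphocyte survival: mice without Gimap5 lose T cells and have defective haematopoietic stem cells, and mice lacking Gimap1 in the lymphoid lineages are short of mature T and B cells. In the mouse the genes lie side by side in a cluster on chromosome 6, in the order Gimap8, Gimap9, Gimap4, Gimap6, Gimap7, Gimap1, Gimap5 and Gimap3.

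Because E2A and Lyl1 act through E-boxes (CANNTG), the 250 bases before each annotated start were read from RefSeq (GRCm38.p6) and searched for that motif, which reads the same on both strands. Distances are counted back from the end of each window. The outermost ends of the Gimap8 and Gimap9 genes in RefSeq, at 48647186 and 48676121, lie inside their windows. The windows shown were chosen by the results that follow. They are the first of 2 annotated Gimap8 starts and the Gimap6 start, for the genes with the widest differences, and the Gimap3 start. Gimap3 and Gimap4 both had almost no difference, and only the former is shown. E-boxes are in capitals, and each sequence runs 5′ to 3′ along the gene's own strand (Gimap8 chr6:48646984-48647233, plus strand; Gimap6 chr6:48708245-48708494, minus strand; Gimap3 chr6:48770852-48771101, minus strand).
Gimap8: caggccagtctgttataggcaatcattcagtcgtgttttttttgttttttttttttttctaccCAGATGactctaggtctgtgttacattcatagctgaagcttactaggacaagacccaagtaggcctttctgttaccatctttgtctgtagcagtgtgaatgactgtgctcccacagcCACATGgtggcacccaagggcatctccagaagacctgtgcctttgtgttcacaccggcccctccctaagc
Gimap6: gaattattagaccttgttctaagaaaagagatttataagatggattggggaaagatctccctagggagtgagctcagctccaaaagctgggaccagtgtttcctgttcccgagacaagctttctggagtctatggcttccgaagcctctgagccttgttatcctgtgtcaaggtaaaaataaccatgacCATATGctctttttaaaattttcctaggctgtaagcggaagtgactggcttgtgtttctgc
Gimap3: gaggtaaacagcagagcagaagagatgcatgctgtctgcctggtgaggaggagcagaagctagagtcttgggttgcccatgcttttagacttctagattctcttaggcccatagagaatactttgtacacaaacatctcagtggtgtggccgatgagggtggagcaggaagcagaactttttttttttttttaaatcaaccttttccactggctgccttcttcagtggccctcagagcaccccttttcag
The Gimap8 window held CAGATG, starting 187 bases before the start site, and CACATG at 70 bases, and the Gimap6 window held CATATG at 61 bases. No CANNTG was present in the windows of Gimap3 and Gimap1. The window of Gimap4, with differences from WT of only -0.027 in E2A-/- and -0.078 in Lyl1-/- cells, held CAAGTG at 178 bases and CACATG at 143 bases. Of the 7 genes 5 had at least 1 such motif in a window, against 69.3% of the 27025 genes in the table and 66.2% of its 32851 windows. CAGCTG was in 0 of the 7 genes and in 14.7% of all genes, and CAGGTG or its complement CACCTG, both of them also CANNTG, in 1 of 7, Gimap9, and in 19.4% of all genes. These matches describe the letters of the windows and say nothing of binding.

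Of the targeted genes, Lyl1 gave intensities of 89.6, 79.2 and 92.0 in Lyl1-/- cells and 1222, 825 and 900.3 in E2A-/- cells, against 1429, 1352 and 1443 in WT cells. For Tcf3 the values were 172, 193 and 121 in E2A-/- cells, against 205, 164 and 195 in WT cells; the labels do not place this probe set relative to the deletion, so it checks nothing. Array medians lay between 77.9 and 79.2, and the lowest value of an array between 42.1 and 45.1, so differences of dim genes are understated. Of the 7 gate and identity genes listed 6 were measured (Kit, Flt3, Cd34, Cd48, Spn and Ptprc; the SCA-1 gene Ly6a was not matched to a probe set of its own), and all 6 lay above the array median on every array. All 6 had differences below 0 in both comparisons with WT, with medians of -0.14 in E2A-/- and -0.30 in Lyl1-/- cells, and 0 passed by limma. Of all tested genes 53.7% were below 0 in E2A-/- and 51.4% in Lyl1-/- cells. In Lyl1-/- cells Kit stood at -0.40, Flt3 at -0.49 and Cd48 at -0.69 (limma adjusted p = 0.572, 0.627 and 0.64). Kit and Cd48, 2 of the 6, were below WT on every Lyl1-/- array, as were 12.2% of all tested genes. The part of these 6 genes in the Gimap values was not tested. The female-specific RNA Xist had an intensity of 2362 on array E2A-/- 2, 2011 on Lyl1-/- 1 and 2001 on Lyl1-/- 2, against 79.7 to 104 on the other 6 arrays. The actin 3-prime over 5-prime ratio, a measure of RNA integrity, was 10.1 in E2A-/- 2 and 10.6 in WT 2, against 2.85 to 4.23 elsewhere. Summed intensities of 11 mature granulocyte genes were 17395 and 19695 in E2A-/- 2 and 3 and 1311 in E2A-/- 1, from 1445 to 3018 in Lyl1-/- cells, and from 1467 to 1644 in WT cells.

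Gimap8 was the member with the widest differences. It encodes the largest protein of the family, with several AIG1-type GTPase domains in one chain. Its intensity was 177, 120.2 and 129.8 in E2A-/- cells and 99.4, 104 and 269.7 in Lyl1-/- cells, against 402, 442 and 369.6 in WT cells. Every knockout array lay below every WT array, and among the knockouts Lyl1-/- 3 stood highest while Lyl1-/- 1 and 2 were the lowest. Group means were 142 ± 30.4 in E2A-/- cells (SD, n = 3) and 158 ± 96.9 in Lyl1-/- cells (SD, n = 3), against 414 ± 39.5 in WT cells (SD, n = 2). The log2 difference was -1.56 between E2A-/- and WT cells (SE 0.396), 34.0% of the WT level, and it missed the threshold of 0.05 over all genes (limma, unadjusted p = 0.00397, adjusted p = 0.264). Between Lyl1-/- and WT cells it was -1.55 (SE 0.396, limma unadjusted p = 0.00407, adjusted p = 0.268), 34.2% of the WT level. In size the Gimap8 difference ranked 5 among 11961 tested genes from the most negative in E2A-/- cells and 7 in Lyl1-/- cells. Lyl1-/- 1 and 2 differed over 2-fold at only 6 probe sets, the fewest of any pair after WT 1 and 3. They entered the fit as 2 samples, and without Lyl1-/- 3 the Lyl1-/- spread comes from these 2 similar arrays alone. Lyl1-/- 3 decides the call, for E2A-/- cells only through the spread that the 3 genotypes share in the fit. Without that array Gimap8 passed in both comparisons (where 0.234% of tested genes passed in E2A-/- and 0.284% in Lyl1-/- cells), at -1.56 for E2A-/- (limma adjusted p = 0.0218) and -2.02 for Lyl1-/- cells (limma adjusted p = 0.0118), over ranges of 0.0218 to 0.999 and 0.0118 to 0.942 in all alternatives.

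Gimap6, which in mouse and human cells binds an autophagy protein of the GABARAP group, followed Gimap8. Its tested probe set read 130.5, 119.7 and 108 in E2A-/- cells and 112, 123 and 177 in Lyl1-/- cells, against 218, 265 and 203 in WT cells. Again no knockout array reached the WT range, and Lyl1-/- 3 was the knockout array closest to it. The log2 difference was -0.99 in E2A-/- cells (SE 0.199, limma unadjusted p = 0.000976, adjusted p = 0.156) and -0.81 in Lyl1-/- cells (SE 0.199, limma unadjusted p = 0.00323, adjusted p = 0.242). With all 9 arrays as separate samples, as the labels have them, Gimap6 passed in E2A-/- cells at -0.93 (limma adjusted p = 0.0465, where 0.811% of tested genes passed), and the adjusted p in all alternatives ran from 0.0465 to 0.999. A second Gimap6 probe set, dimmer throughout, read 62.0, 63.2 and 68.8 in E2A-/- cells and 66.3, 60.9 and 73.9 in Lyl1-/- cells, against 114, 99.6 and 98.8 in WT cells. It lay above the array median on the 3 WT arrays only. A probe set kept by the filter only through WT had to be lower in the knockouts, so no test of it is given.

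**Figure D1:**
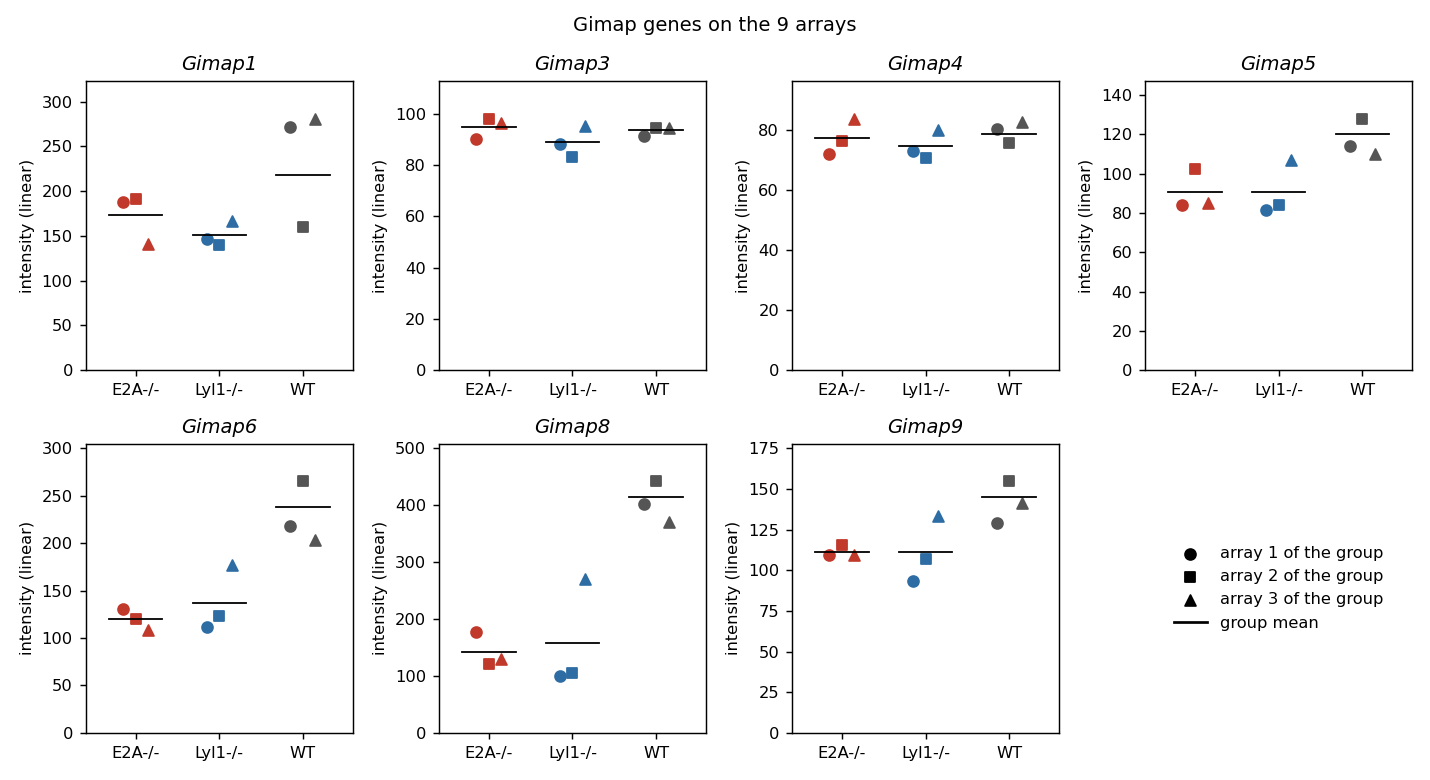
Linear intensity (vertical axis, starting at 0) of the tested probe set of each Gimap gene in E2A-/-, Lyl1-/- and WT cells; each symbol is 1 array, its shape gives the array number, and the line is the group mean with WT 1 and 3 counted as 1 sample. In Gimap5, Gimap6 and Gimap8 all 6 knockout arrays lie below the 3 WT arrays, and in Gimap8 Lyl1-/- 3, at 269.7, stands between the other knockout arrays and WT.

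Gimap5 and Gimap9 were lower by smaller amounts. Gimap5, the family member tied to lymphocyte and stem cell survival in mice, read 83.9, 102 and 85.0 in E2A-/- cells and 81.2, 84.3 and 107 in Lyl1-/- cells, against 114, 128 and 109.9 in WT cells. The knockout and WT arrays did not overlap, though Lyl1-/- 3 came within a few units of WT 3. The log2 difference was -0.41 both in E2A-/- cells (SE 0.151, limma unadjusted p = 0.0251, adjusted p = 0.498) and in Lyl1-/- cells (SE 0.151, limma unadjusted p = 0.0251, adjusted p = 0.47). Gimap9 read 109, 116 and 109 in E2A-/- cells and 93.4, 107 and 134 in Lyl1-/- cells, against 129, 155 and 141 in WT cells. The E2A-/- arrays lay below WT, while Lyl1-/- 3 exceeded WT 1. Gimap9 stood at -0.37 in E2A-/- cells (SE 0.150, limma adjusted p = 0.547) and at -0.39 in Lyl1-/- cells (SE 0.150, limma adjusted p = 0.5).

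Gimap1 was split within WT. The gene, needed for the survival of mature lymphocytes in mice, read 188, 191 and 141 in E2A-/- cells and 146, 139 and 167 in Lyl1-/- cells, against 271, 160.0 and 281 in WT cells. WT 2, an array with a high actin ratio, lay among the knockout arrays, whereas for Gimap5, Gimap6, Gimap8 and Gimap9 it was the highest array of all; the part of RNA quality in this was not tested. The log2 difference was -0.29 in E2A-/- cells (SE 0.230, limma adjusted p = 0.835) and -0.48 in Lyl1-/- cells (SE 0.230, limma adjusted p = 0.618). Against WT 2 alone it was 0.10 in E2A-/- and -0.088 in Lyl1-/- cells, and without WT 2 it was -0.69 in E2A-/- and -0.88 in Lyl1-/- cells.

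Gimap3 and Gimap4 were close to the array median on all arrays. Gimap3, known in mice for its effect on the inheritance of mitochondrial DNA variants, read 90.1, 98.1 and 96.3 in E2A-/- cells and 88.2, 83.3 and 95.2 in Lyl1-/- cells, against 91.4, 94.5 and 94.7 in WT cells. The groups overlapped, with differences of 0.015 in E2A-/- cells (95% interval -0.21 to 0.24) and -0.079 in Lyl1-/- cells (-0.30 to 0.14). Gimap4, which affects the death of T cells in mice, read 71.9, 76.2 and 83.7 in E2A-/- cells and 72.8, 70.7 and 80.0 in Lyl1-/- cells, against 80.4, 75.8 and 82.5 in WT cells. Its differences were -0.027 (-0.27 to 0.22) in E2A-/- and -0.078 (-0.32 to 0.16) in Lyl1-/- cells. The tested Gimap4 probe set exceeded the median on 4 arrays and its second probe set, at 60.5 to 76.4, on 0, so the signal of this gene is not separated from that of the dimmer part of the array.

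Across the family, 0 of 7 members passed over all genes in either comparison with WT by limma. In E2A-/- cells 0.226% of tested genes passed, and 0.109% passed and were lower; in Lyl1-/- cells these shares were 0.192% and 0.125%. With an unadjusted limma p under 0.05, 4 of 7 were lower in E2A-/- cells, where 5.36% of all tested genes were, and 4 of 7 in Lyl1-/- cells, where 5% were; the 4 were Gimap5, Gimap6, Gimap8 and Gimap9 both times. All 3 E2A-/- arrays lay below all WT arrays in 4 of 7 members, against 10.3% of tested genes, and all 3 Lyl1-/- arrays in 3 of 7, against 12.2%. All 6 knockout arrays lay below the WT arrays in 3 of 7, Gimap5, Gimap6 and Gimap8, against 4.76% of tested genes. The median difference of the 7 members was -0.37 in E2A-/- cells and -0.41 in Lyl1-/- cells, beside -0.013 and -0.0048 over all tested genes. The members were chosen with results of these data known, so these counts describe the family and are no test of it. Whether probe sets of these paralogues cross-hybridise was not tested. Both comparisons share the WT arrays and do not repeat each other.

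**Figure D2:**
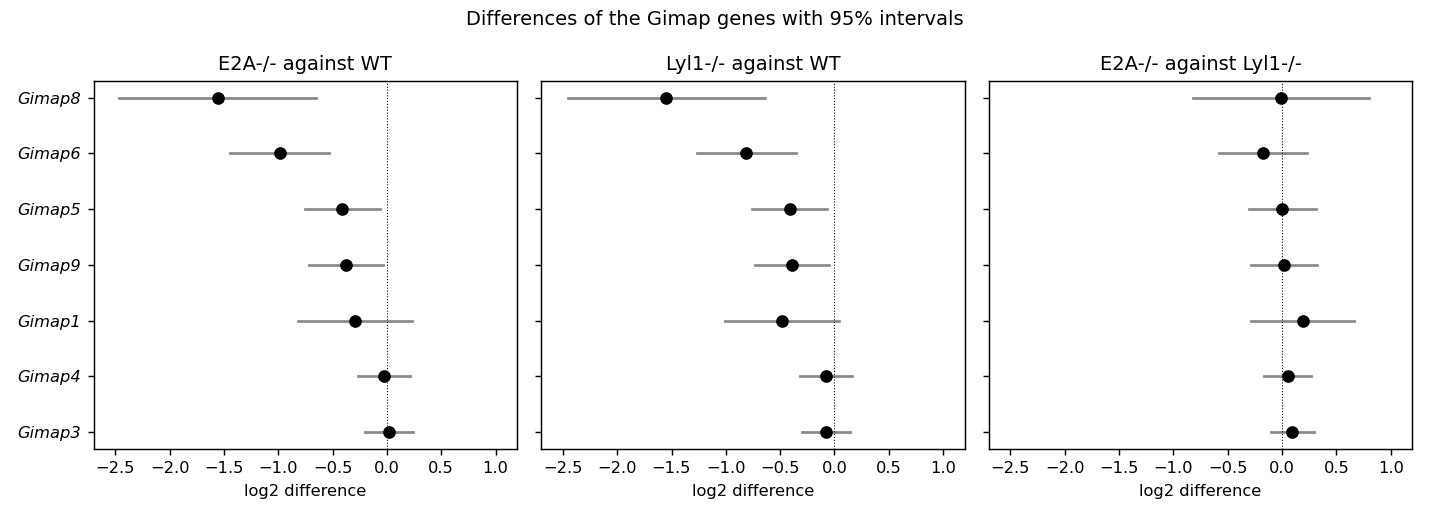
Log2 difference (horizontal axis) of each Gimap gene with its 95% interval from limma in the 3 comparisons, the first-named genotype minus the second. Gimap8 and Gimap6 lie farthest below 0 against WT, at -1.56 and -0.99 in E2A-/- cells, and every interval of E2A-/- against Lyl1-/- includes 0.

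Between the knockouts 0 of 7 members passed by limma, where 0.117% of tested genes did, and 0 of 7 were lower at an unadjusted p under 0.05, against 4.8% of tested genes. Gimap8 differed by -0.0069 between E2A-/- and Lyl1-/- cells (SE 0.354), with a 95% interval of -0.82 to 0.80 that leaves room for a difference in either direction. Gimap6 stood at -0.17 (-0.58 to 0.23), Gimap5 at -0.00027 (-0.31 to 0.31), Gimap9 at 0.017 (-0.29 to 0.32) and Gimap1 at 0.19 (-0.28 to 0.66). Gimap3 and Gimap4 had intervals of -0.10 to 0.29 and -0.17 to 0.27. In Gimap8 the order of the groups was WT above Lyl1-/- above E2A-/- cells by mean intensity, and the knockouts did not differ beyond their spread.

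The arrays of a genotype were not alike. The median member stood at -0.40, -0.22 and -0.49 on E2A-/- 1, 2 and 3 and at -0.56, -0.51 and -0.16 on Lyl1-/- 1, 2 and 3 relative to the WT mean. All 7 members were below the WT mean on E2A-/- 1, Lyl1-/- 1 and Lyl1-/- 2, 6 of 7 on E2A-/- 2, and 5 of 7 on E2A-/- 3 and Lyl1-/- 3. On WT 1, 2 and 3 themselves 5, 2 and 4 of 7 were below that mean, so these counts alone separate the genotypes poorly. Gimap8 alone ranged from -1.22 to -1.78 over the E2A-/- arrays and from -0.61 to -2.05 over the Lyl1-/- arrays. Lyl1-/- 1 and 2 were the Lyl1-/- arrays with Xist signal. With sex as a covariate Gimap8 stood at -1.27 in E2A-/- and -0.97 in Lyl1-/- cells. Without the 3 arrays with Xist signal, a choice made after seeing the data, it stood at -1.44 in E2A-/- cells (limma adjusted p = 0.358) and at -0.61 on the remaining Lyl1-/- array (limma adjusted p = 0.853), where the lone array is assumed to vary like the other groups. The Gimap6 difference in Lyl1-/- cells was then -0.42, and that of Gimap5 -0.16. On E2A-/- 1, the E2A-/- array with the low granulocyte sum, Gimap8 was at -1.22, Gimap6 at -0.86 and Gimap5 at -0.51 from the WT mean. On E2A-/- 2 and 3, with the high granulocyte sums, Gimap8 was at -1.78 and -1.67, Gimap6 at -0.98 and -1.12, and Gimap5 at -0.22 and -0.49. The part of granulocyte RNA in these values was not tested.

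Markers of other cells that hold Gimap transcripts were read on the same arrays; in sorted bulk RNA, fewer cells of a type and less RNA per cell cannot be told apart. The summed intensity of 16 mature T cell genes was 1365 to 1399 in E2A-/- cells and 1367 to 1406 in Lyl1-/- cells, against 1372 to 1427 in WT cells. Of their defining genes, Cd3g read 56.3 to 60.6 and Cd3d 65.7 to 81.2, while Cd3e, at 103 to 120.1, was above the array median on every array. From 7 to 9 of the 16 genes were above the median of an array, and differences of the dim ones are understated. Of the 8 T cell genes tested 0 passed by limma in either comparison. Thy1, a surface glycoprotein gene that stem and progenitor cells of some strains also express, was above WT on every knockout array, at 0.38 in E2A-/- and 0.28 in Lyl1-/- cells (limma adjusted p = 0.404 and 0.567). The adaptor gene Lat stood at -0.40 in E2A-/- and -0.17 in Lyl1-/- cells (limma adjusted p = 0.536 and 0.865). The B cell genes Cd79a and Ms4a1 read 68.5 to 75.1 and 59.1 to 65.7, and the NK cell receptor gene Ncr1 66.4 to 74.3. The 9 B cell genes measured summed to 696 to 758 in E2A-/- and 784 to 872 in Lyl1-/- cells, against 730 to 742 in WT cells. Of these, Cd79b alone gave 155 to 226 in E2A-/- and 229.9 to 319 in Lyl1-/- cells, against 173 to 194 in WT cells. Cd79b stood at 0.032 in E2A-/- and 0.56 in Lyl1-/- cells (limma adjusted p = 0.989 and 0.405). The 11 NK cell genes summed to 1729.8 to 2201 in E2A-/- and 1475 to 1646 in Lyl1-/- cells, against 1351 to 1620.2 in WT cells. Nkg7 alone gave 1032 to 1513 in E2A-/- and 799.5 to 954 in Lyl1-/- cells, against 659 to 918 in WT cells. Nkg7 stood at 0.67 in E2A-/- and 0.15 in Lyl1-/- cells (limma adjusted p = 0.343 and 0.921). Prf1, the other NK cell gene tested, stood at -0.067 in E2A-/- and -0.015 in Lyl1-/- cells. Endothelial cells hold Gimap transcripts too. The 12 endothelial genes summed to 1123 to 1325 in E2A-/- and 1342 to 1408 in Lyl1-/- cells, against 1349 to 1627 in WT cells. Of 9 tested, 6 were below 0 in E2A-/- cells (53.7% of all tested genes) and 3 in Lyl1-/- cells (51.4%). Their medians were -0.18 and 0.019, and 0 passed by limma. Emcn stood at -0.53 in E2A-/- and -0.17 in Lyl1-/- cells (limma adjusted p = 0.204 and 0.789). Egfl7 stood at -0.69 and -0.38 (limma adjusted p = 0.418 and 0.72). The endothelial cadherin gene Cdh5 read 62.7 to 72.4 and Pecam1 67.4 to 77.3 on all arrays. The part of any of these cells in the Gimap values was not tested.

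**Figure D3:**
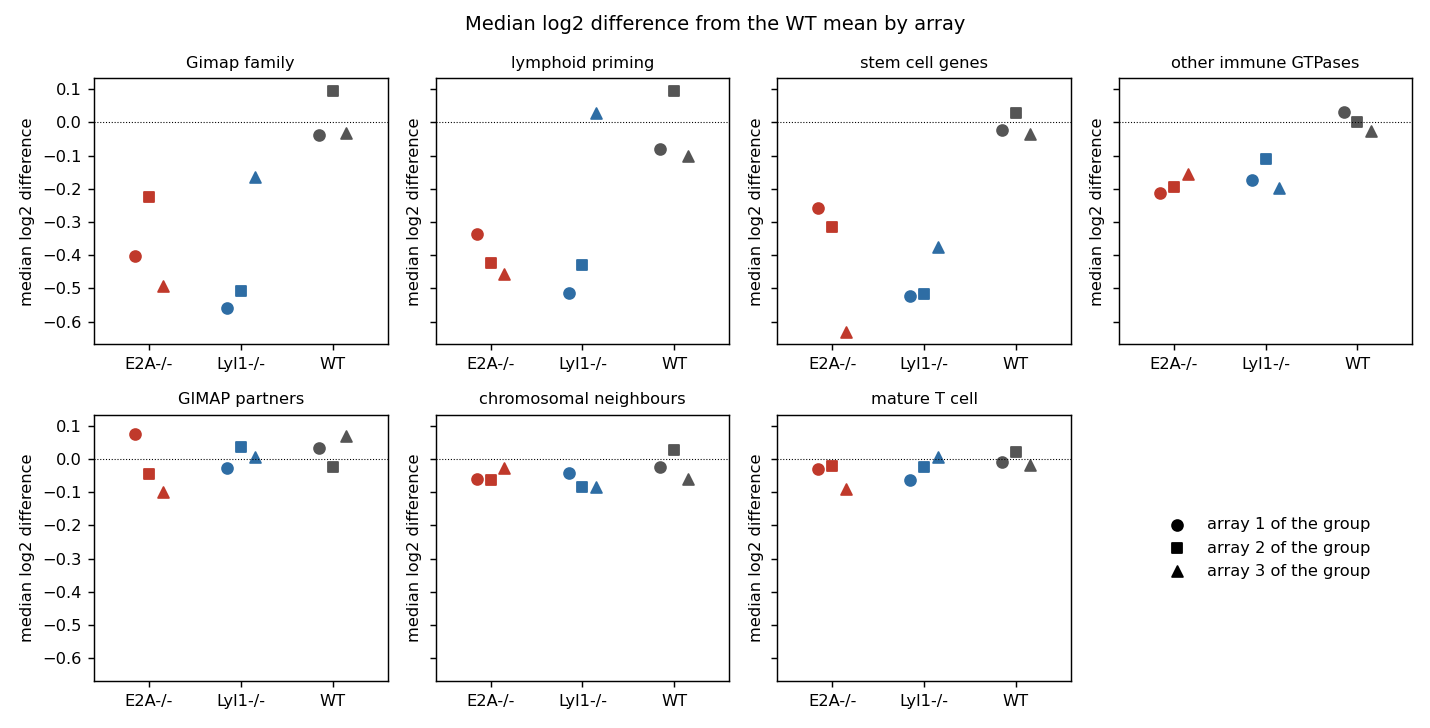
Median log2 difference from the WT mean (vertical axis) of the tested genes of 7 lists on each array of E2A-/-, Lyl1-/- and WT cells; the symbol gives the array number. The Gimap and lymphoid priming medians are low on Lyl1-/- 1 and 2 and nearer to 0 on Lyl1-/- 3, at -0.16 and 0.027, while the mature T cell median stays between -0.090 and 0.020. Many of the T cell genes lie near the array median, where differences are understated.

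Genes of lymphoid priming were, like the Gimap genes, lowest on Lyl1-/- 1 and 2 within the Lyl1-/- arrays. Their median was -0.34, -0.42 and -0.46 on E2A-/- 1, 2 and 3 and -0.51, -0.43 and 0.027 on Lyl1-/- 1, 2 and 3. Of 15 tested genes 0 passed in either comparison by limma; 7 were lower and 1 higher at an unadjusted p under 0.05 in E2A-/- cells, where 5.36% of all tested genes were lower and 3.21% higher. In Lyl1-/- cells 4 were lower and 2 higher, where 5% of all tested genes were lower and 3.8% higher. The higher gene in both was Cd52, a surface glycoprotein gene, at 0.77 in E2A-/- and 0.68 in Lyl1-/- cells (limma adjusted p = 0.244 and 0.333). The surrogate light chain gene Vpreb1 stood at -0.39 in E2A-/- and 0.37 in Lyl1-/- cells, and the calponin gene Cnn3 at -0.52 in Lyl1-/- cells. The terminal transferase gene Dntt stood at -1.09 in E2A-/- cells (limma adjusted p = 0.0838), and Rgs1, a regulator of G protein signalling, at -0.41 in E2A-/- and -0.38 in Lyl1-/- cells. Stem cell genes had medians of -0.26, -0.32 and -0.63 on the E2A-/- arrays and -0.52, -0.52 and -0.38 on the Lyl1-/- arrays. At an unadjusted p under 0.05, 6 of 15 tested stem cell genes were lower in E2A-/- cells (5.36% of all tested genes) and 7 of 15 in Lyl1-/- cells (5%). All 3 E2A-/- arrays lay below the WT arrays in 6 of 15, against 10.3% of all tested genes, and all 3 Lyl1-/- arrays in 9 of 15, against 12.2%. The growth suppressor gene Ndn was the 1 gene of the 15 past the adjusted threshold in either comparison, with differences of -1.18 in E2A-/- cells (limma adjusted p = 0.0123) and -1.26 in Lyl1-/- cells (limma adjusted p = 0.00958). Mecom, a transcription factor of stem cells, stood at -0.76 in E2A-/- cells (limma adjusted p = 0.136) and Meis1, a homeobox partner, at -0.82 in Lyl1-/- cells (limma adjusted p = 0.113). Robo4 and Pdzk1ip1 stood at -0.52 and -1.13 in E2A-/- cells, and Txnip at -0.59 in Lyl1-/- cells.

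Genes of proteins reported to bind GIMAPs or to act in the same processes differed in both directions. Of 13 tested genes, among them members of the Bcl2 family, the chaperone gene Hspa8, the kinase gene Gsk3b and the GABARAP group, 0 passed in either direction by limma in either comparison with WT. Their median was -0.044 in E2A-/- cells and 0.020 in Lyl1-/- cells. The death inhibitor Bcl2 stood at 0.22 in E2A-/- cells (limma adjusted p = 0.818) and at 0.46 in Lyl1-/- cells (limma unadjusted p = 0.0198, adjusted p = 0.439). It was the 1 gene of the 13 with an unadjusted limma p under 0.05 against WT, where 3.8% of all tested genes were higher in Lyl1-/- cells. Bcl2l11, which promotes cell death, stood at 0.34 in E2A-/- cells (limma adjusted p = 0.746), and Hspa8 at 0.18 in E2A-/- and 0.23 in Lyl1-/- cells. The death inhibitor Bcl2l1 stood at -0.15 in E2A-/- and -0.14 in Lyl1-/- cells, and the pore-forming Bak1 at 0.27 in Lyl1-/- cells.

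Other GTPase families of immunity, the interferon-induced Gbp, Irg and Mx genes, were read in the same way. Of 10 tested genes 0 passed by limma, and 3 were lower at an unadjusted p under 0.05 in E2A-/- cells (5.36% of all tested genes) and 1 in Lyl1-/- cells (5%). All 3 E2A-/- arrays lay below the WT arrays in 5 of 10, against 10.3% of all tested genes, and all 3 Lyl1-/- arrays in 4 of 10, against 12.2%. The median was -0.27 in E2A-/- and -0.16 in Lyl1-/- cells. Irgm1, which guards cells against vacuolar pathogens, stood at -0.39 in E2A-/- cells and -0.41 in Lyl1-/- cells (limma adjusted p = 0.467 and 0.432), and Gbp2 at -0.37 in E2A-/- and -0.16 in Lyl1-/- cells. Mx1 stood at -0.23 in E2A-/- and -0.20 in Lyl1-/- cells, Gbp7 at -0.38 in E2A-/- cells, and Igtp at -0.32 in Lyl1-/- cells. Gbp6 stood at 0.0100 in E2A-/- and 0.40 in Lyl1-/- cells.

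Of the other genes within 500000 bases on either side of the cluster in the RefSeq table, Gimap7 included, 16 were tested, and 0 passed by limma in either comparison; 2 were lower at an unadjusted p under 0.05 in E2A-/- cells (5.36% of all tested genes) and 3 in Lyl1-/- cells (5%). Their median was -0.012 in E2A-/- and -0.061 in Lyl1-/- cells. In 3 of 16 all E2A-/- arrays lay below the WT arrays, against 10.3% of all tested genes. For the Lyl1-/- arrays it was 4 of 16, against 12.2%. Gimap7, within the cluster, read 85.1, 81.4 and 69.7 in E2A-/- cells and 81.1, 65.0 and 87.3 in Lyl1-/- cells, against 93.1, 146 and 92.8 in WT cells. All knockout arrays were below the WT arrays, as in 4.76% of all tested genes. The differences were -0.57 in E2A-/- cells (limma adjusted p = 0.48) and -0.59 in Lyl1-/- cells (limma adjusted p = 0.432), and WT 2 was the highest array. The genes next to the cluster, Zfp775 and the pseudogene AI854703 on the Gimap8 side, stood at -0.12 and -0.019 in E2A-/- cells and at -0.30 and -0.077 in Lyl1-/- cells. Tmem176b and Tmem176a, membrane protein genes on the Gimap3 side, stood at -0.19 and -0.11 in E2A-/- cells and at 0.0071 and -0.097 in Lyl1-/- cells. Farther out, Krba1 read 124, 128 and 115 in E2A-/- cells and 113, 113 and 123 in Lyl1-/- cells, against 151, 179 and 139 in WT cells, a difference of -0.40 in E2A-/- (limma adjusted p = 0.355) and -0.47 in Lyl1-/- cells (limma adjusted p = 0.256). The zinc finger gene Zfp467 stood at -0.25 in E2A-/- and -0.52 in Lyl1-/- cells (limma adjusted p = 0.757 and 0.363). The remaining 9 genes (Sspo, Zfp862-ps, Lrrc61, Rarres2, Repin1, Gpnmb, Malsu1, Igf2bp3 and Tra2a) lay between -0.077 and 0.086.

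**Figure D4:**
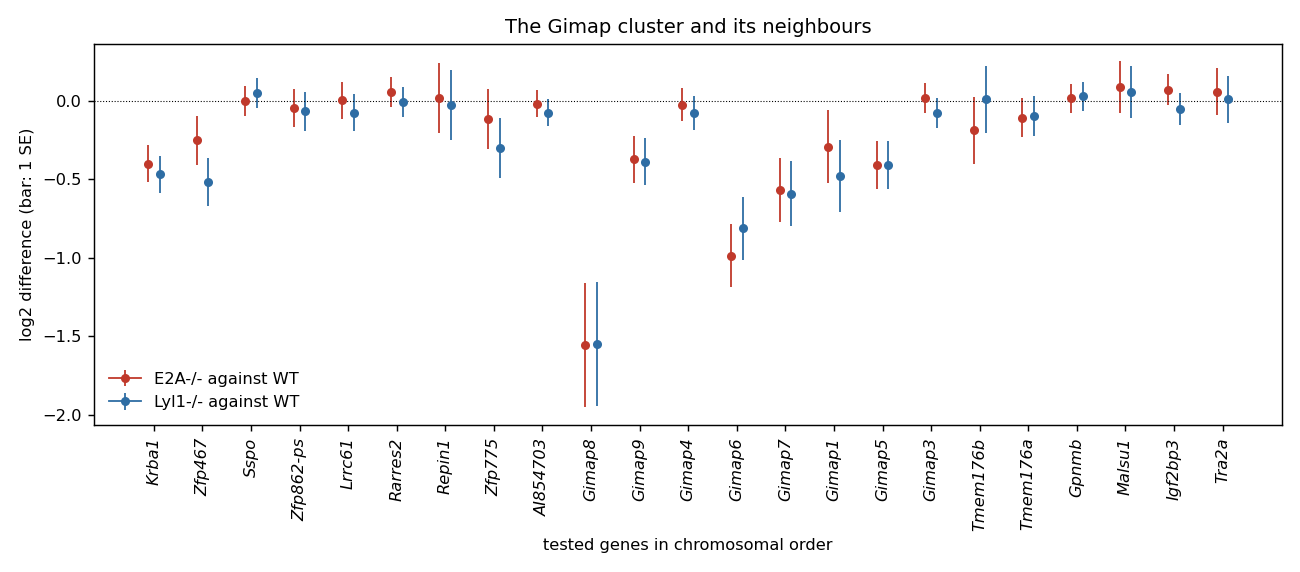
Log2 difference with 1 SE (vertical axis) of the tested genes of the Gimap cluster and its neighbours in chromosomal order (horizontal axis, not to scale), for E2A-/- against WT and Lyl1-/- against WT. Gimap8 and Gimap6 lie lowest at -1.56 and -0.99 in E2A-/- cells, and the genes on either side of the cluster lie near 0 apart from Krba1 and Zfp467, with Zfp775 at -0.30 in Lyl1-/- cells.

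Gimap8 spanned the widest log2 range of the 7 members over the 8 samples, 2.15, against 1.29 for Gimap6 and 0.24 for Gimap3 and Gimap4. After centring each gene, Gimap6 was the third nearest of 11960 genes to Gimap8, with a root mean square difference of 0.392 on the log2 scale over 8 samples. Gimap9 ranked 104, Gimap5 131, Gimap1 508, Gimap4 2990 and Gimap3 3311. The 5 nearest genes outside the family were the phosphatase gene Ptp4a2 (0.369), Ndn (0.379), the endosomal gene Wdfy1 (0.403), the noncoding RNA Malat1 (0.422) and the cytokine subunit gene Ebi3 (0.441). Wdfy1 read 123, 117 and 110.1 in E2A-/- cells and 128, 137 and 209 in Lyl1-/- cells, against 265, 262 and 243 in WT cells, so Lyl1-/- 3 was its highest knockout array as in Gimap8. Ptp4a2 read 1663, 1791 and 1869.8 in E2A-/- cells and 1549.8, 1655 and 2002 in Lyl1-/- cells, against 4441, 4823 and 4744 in WT cells. These ranks describe likeness over few samples and carry no test. The values were centred but not scaled, so a gene with a small range cannot rank near Gimap8, whatever its pattern.

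**Figure D5:**
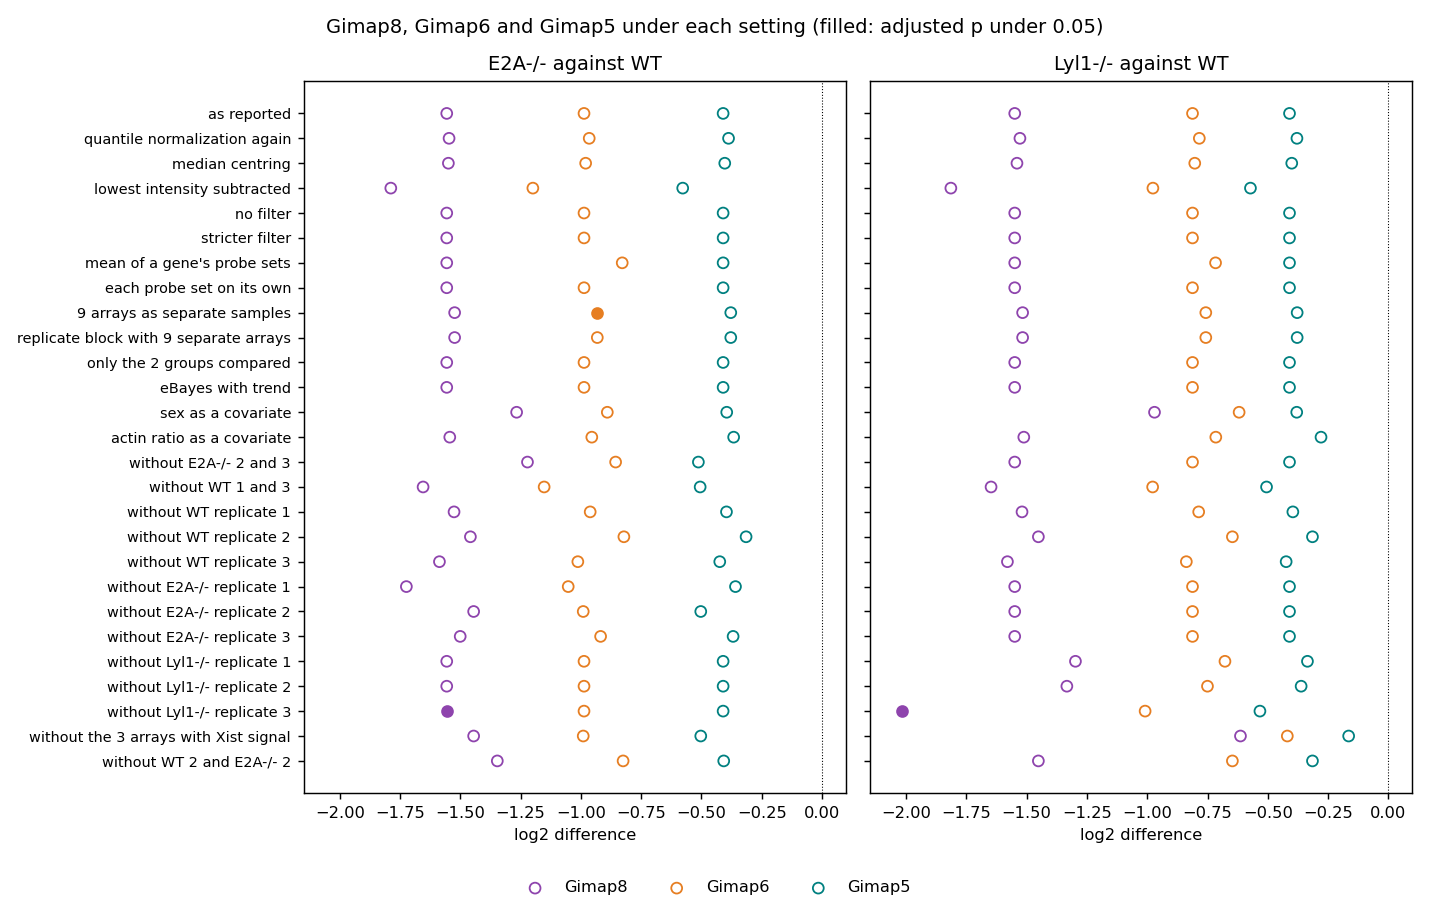
Log2 difference (horizontal axis) of Gimap8, Gimap6 and Gimap5 under each processing alternative (vertical axis) for E2A-/- against WT and Lyl1-/- against WT; filled symbols have an adjusted p under 0.05. All values lie below 0, and Gimap8 in Lyl1-/- cells runs from -2.02 without Lyl1-/- 3 to -0.61 without the arrays with Xist signal.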

How the data were processed

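The authors deposited linear intensity values, 1 for every probe set on every array. RMA and oligo are named in the submitters' processing notes, without versions or parameters. The 9 arrays nearly share one distribution. Log2 of the deposited intensity was taken with no pseudocount. Of 45101 probe sets 64 controls were left out, as were 932 with several genes and 9160 with none. Each gene was read from the probe set that was brightest in mean log2 value, and was tested where it exceeded the array median on at least 3 arrays (11961 of 18193 genes); all 7 Gimap genes passed. WT 1 and WT 3 had a robust spread of 0.0827 at the brightest 20% of probe sets, against 0.193 to 0.375 in the other 35 array pairs, and were averaged before the fit. The 0.193 was that of Lyl1-/- 1 and 2, which were kept as 2 samples. The 8 samples entered a linear model of the 3 genotypes in limma 3.58.1 (R 4.3.3), which left 5 residual degrees of freedom. Two-sided p-values were adjusted over all tested genes by the Benjamini-Hochberg method, and the threshold was 0.05. The fit was tested on simulated data. Nothing but the labels shows that replicates are separate animals, so p-values measure the spread between these samples, whose number limits the precision.

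The members, gene lists and tests were chosen with earlier results of these data known. Named genes are all members, all tested genes within 500000 bases of the cluster, and the 5 genes nearest to Gimap8. Also named are up to 4 genes of smallest p per list in each comparison with WT, and defining markers. Among the markers, Kit, Flt3, Cd48, Thy1, Lat, Cd79b, Nkg7, Emcn and Egfl7 were singled out after their values were seen. Alternatives changed the normalization, the background constant, the filter, the probe sets of a gene, the samples, the block, the variance prior and the covariates. Of the protein sequences foreseen none were used here.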

Additional observations from a re-analysis of the deposited data

How the results depend on the processing

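The number of Gimap genes past the threshold was 0 in each comparison as reported. With 9 separate arrays it was 1 for E2A-/- against WT (Gimap6), and leaving out 1 replicate gave 0 to 1 for E2A-/- against WT and 0 to 1 for Lyl1-/- against WT (Gimap8, without Lyl1-/- 3). Over all genes the 9 separate arrays gave 97 calls against 27 for E2A-/- and 93 against 23 for Lyl1-/- cells; with the replicate block on the 9 arrays Gimap6 was at -0.93 and Gimap8 at -1.52 in E2A-/- cells, and 0 Gimap genes passed. Deviations of same-numbered arrays correlated between -0.14 and 0.22 across genes. Differently numbered arrays were not compared in this way, so these values do not settle whether the numbers pair the samples. WT 2 and E2A-/- 2 shared a high actin ratio, at 10.6 and 10.1. Gimap5, Gimap6, Gimap8 and Gimap9 stayed below 0 against WT in all 26 alternatives. The median member in Lyl1-/- cells was -0.16 without the arrays with Xist signal, and for E2A-/- against Lyl1-/- it was then -0.29. The sign turned in the following values, and the cause was not tested. Against WT in E2A-/- cells, Gimap4 was 0.0035 after adjusting for sex and 0.025 without WT 1 and 3, Gimap1 0.10 without WT 1 and 3, and Gimap3 -0.058 without E2A-/- 2 and 3 and -0.0097 without the Xist arrays; in Lyl1-/- cells without the Xist arrays Gimap3 was 0.021 and Gimap4 0.026. Between E2A-/- and Lyl1-/- cells, Gimap8 was 0.026 with the lowest intensity subtracted, 0.33 without E2A-/- 2 and 3 and 0.10 without WT 2 and E2A-/- 2. Gimap9 was -0.039 with sex and -0.043 with the actin ratio as a covariate, -0.011 without E2A-/- 2 and 3, -0.010 without WT 2 and E2A-/- 2 and -0.29 without the Xist arrays. Gimap4 was -0.049 without E2A-/- 2 and 3, and without the Xist arrays Gimap1 was -0.038, Gimap3 -0.031 and Gimap4 -0.044. Leaving out 1 replicate moved Gimap3 between -0.0097 and 0.052 and Gimap4 between -0.086 and 0.024 in E2A-/- against WT. Between the knockouts it moved Gimap4 between -0.0074 and 0.10, Gimap5 between -0.093 and 0.12, Gimap6 between -0.31 and 0.022, Gimap8 between -0.26 and 0.46 and Gimap9 between -0.10 and 0.16. The alternatives without the Xist arrays and without WT 2 and E2A-/- 2 were added after seeing the data. Fits that leave 1 array in a group take its spread from the other groups. Dim probe sets such as those of Gimap3 and Gimap4 lie near the array median, where differences are understated.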
